A study of Xenopus laevis with 30 samples.

Results

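The Sox genes encode transcription factors that bind DNA through a high-mobility-group domain related to that of the sex-determining factor SRY. In the table of raw counts, 32 of 49109 gene rows had a name that began with sox followed by a number, and all of these rows were taken, whatever their level. By the number in the name, 10 belonged to SoxB (sox1, sox2, sox3, sox14 and sox21), 4 to SoxC (sox4 and sox11), 3 to SoxD (sox5, sox6 and sox13), 6 to SoxE (sox8, sox9 and sox10) and 7 to SoxF (sox7, sox17 and sox18). The other 2 rows, sox12.S and sox15.L, were outside these 5 groups, although mammalian Sox12 is usually placed with SoxC. X. laevis is allotetraploid, and a name ending in .L or .S denotes the copy on the long or the short chromosome of a homeologous pair.

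As background, sox1, sox2 and sox3 (the SoxB1 genes) keep neural progenitors undifferentiated, while sox14 and sox21 (SoxB2) act largely as repressors that oppose them. The SoxC proteins are activators of neuronal genes in newly born neurons. SoxD proteins lack a transactivation domain of their own and modulate other Sox proteins, SoxE proteins act in glia and neural crest, with sox10 needed for myelin gene expression in oligodendrocytes and Schwann cells, and SoxF proteins act in blood vessel endothelium, with sox17 also in endoderm.

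The study measured RNA from the brain and spinal cord of albino X. laevis tadpoles of both sexes at numbered Nieuwkoop-Faber stages, with RNA amplified before sequencing as single-end reads. The midbrain was sampled at stages 44, 46, 55 and 61 with 3 samples each, at stage 49 with 2 and at stage 66 with 1. The forebrain (without its cortical part, as the methods describe it), the hindbrain (which included the rhombic lip) and the spinal cord were sampled at stage 46 with 3 samples each and at stage 49 with 2 each. The labels name no treatment, and no allele beyond the albino background that all groups shared. The labels do not say whether replicates came from separate animals or pools, so p-values measure the spread between these samples. Stages 49 and 66 stood outside the comparisons described in the study's methods, and the single stage 66 library has no replicate check.

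The 30 libraries held between 1762544 and 11016124 counts, with a median of 7317640. In 10 of them between 42817 and 46638 genes were detected after thinning to the smallest library, against 27651 to 32593 in the other 20. These 10 were the third libraries of forebrain, hindbrain and spinal cord at stage 46, the second midbrain library of stage 49, and both stage 49 libraries of forebrain, hindbrain and spinal cord. Their share of counts in genes silent in the other midbrain libraries was 0.541% to 1.87%, against at most 0.101% elsewhere. Levels are given below as counts per 1000000 counts (CPM) scaled by TMM factors over all 30 libraries, and in these 10 libraries the factors were 1.21 to 1.87 against 0.805 to 0.921 in the others. The spinal cord label was borne out by the posterior gene hoxa9.S, which averaged 58.6 CPM in stage 46 spinal cord against at most 0.687 in the other regions of that stage. The neuronal gene elavl4.L was present in every group, at means of 59.4 to 510 CPM. Gene lengths were not used, so levels are not compared between genes or between the copies of a pair, and in bulk tissue fewer cells of a type cannot be told apart from less RNA per cell.

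The first question was how the Sox genes changed in the midbrain as the tadpole grew and entered metamorphosis. Of the 32 copies, 30 passed the filter on low counts in the 12 midbrain libraries of stages 44, 46, 55 and 61, and the 2 that did not were sox17b.1.S and sox17b.2.L. In the edgeR quasi-likelihood test over the 4 stages, 18 of the 30 differed at an adjusted p under 0.05, against a background of 41.2% of all genes tested. No copy passed between stages 44 and 46, where 0.00375% of all genes were called higher and 0% lower. For these 30 copies, edgeR also gave 0 calls at an unadjusted p under 0.05 and DESeq2 gave 0. Stages 44 and 46 were pooled as the early stages because the study groups them, not because of these tests.

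Against the mean of the early stages, 5 copies were higher and 3 lower at stage 55 (16.7% and 10%, background 12.4% and 10.6%). At stage 61, 5 were higher and 15 lower (16.7% and 50%, background 21.8% and 22%). The stage 55 shares were near those of all genes, and the share higher at stage 61 was below that of all genes. The median log2 change of the 30 copies at stage 61 was -0.52, beside 0.01 over all genes tested. From stage 55 to stage 61, 5 copies were higher and 8 lower, with backgrounds of 8.52% and 10.7%. The direction divided by Sox group as the groups are drawn here. At stage 61, 8 of 10 SoxB, 3 of 4 SoxC and 3 of 3 SoxD copies were lower, and 4 of 6 SoxE copies were higher. sox12.S, kept outside these groups although mammalian Sox12 is usually placed with SoxC, was higher, against the direction of the SoxC copies.

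**Figure D1:**
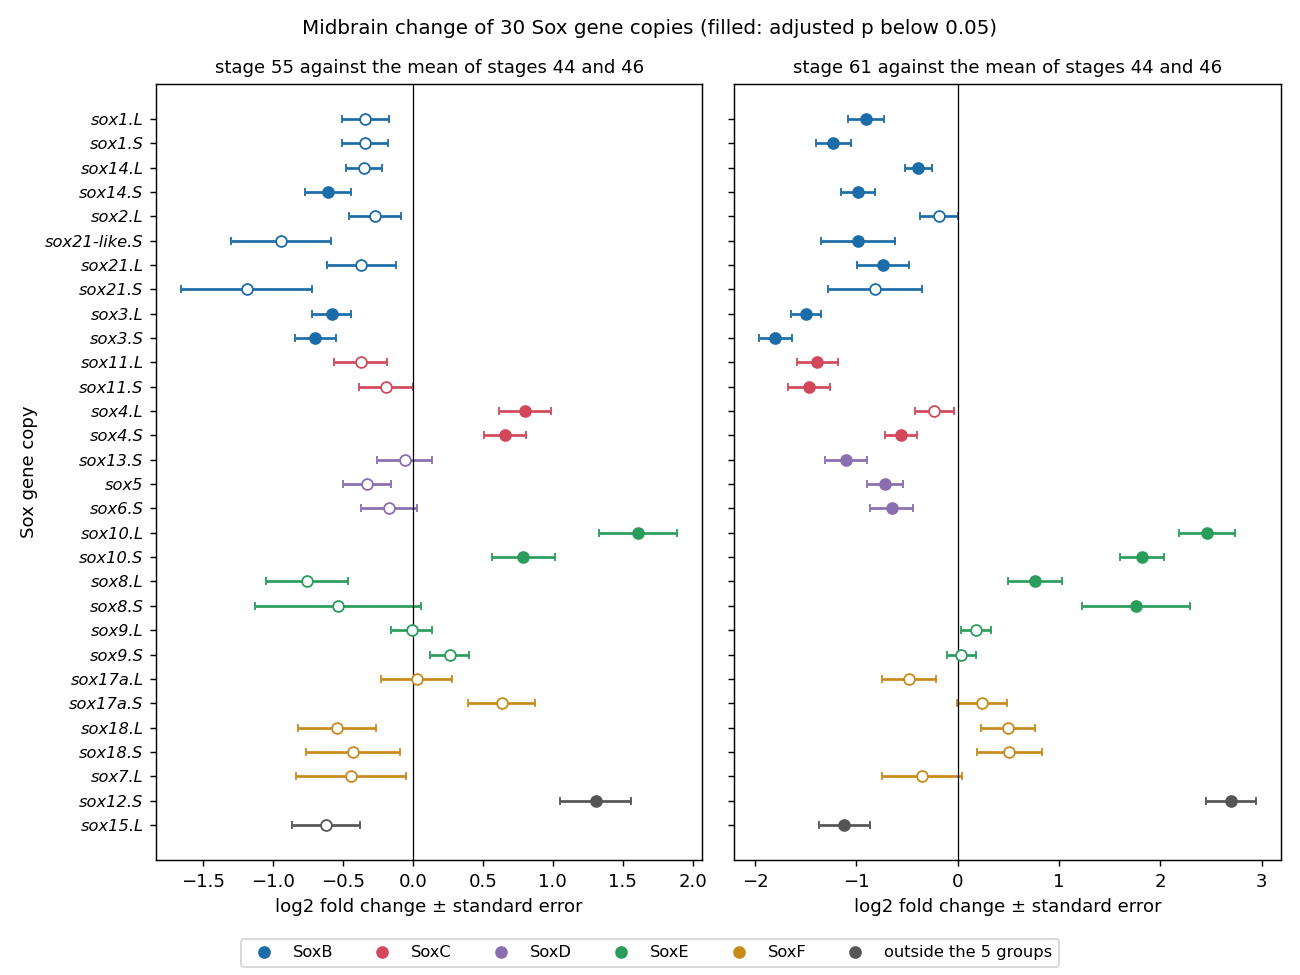
Log2 fold change of 30 Sox gene copies in the midbrain at stage 55 (left) and stage 61 (right) against the mean of stages 44 and 46; bars are standard errors and filled points passed an adjusted p of 0.05 in edgeR. At stage 61 the filled SoxB, SoxC and SoxD points lie left of 0 and the filled SoxE points right of it, with sox12.S furthest right at 2.70 and sox3.S furthest left at -1.80.

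Among the SoxB1 genes, sox3 fell in steps. sox3.S stood at 102, 109 and 103 CPM at stage 44 and at 120, 116 and 107 CPM at stage 46, then at 65.2, 59.0 and 76.1 CPM at stage 55 and 39.2, 22.3 and 30.5 CPM at stage 61. Every stage 55 library was below every early library and above every stage 61 library. The log2 change was -0.70 ± 0.15 (SE) at stage 55 (adjusted p = 0.0018) and -1.80 ± 0.16 at stage 61 (adjusted p = 1.4e-08). From stage 55 to stage 61 it was -1.10 ± 0.17. The stage 55 call was kept in 16 of 17 alternative fits, with adjusted p up to 0.12.

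Its homeolog sox3.L ran from 77.9 to 98.6 CPM over the 6 early libraries, then stood at 50.3, 50.9 and 71.3 CPM at stage 55 and at 31.8, 29.0 and 30 CPM at stage 61. These periods did not overlap either, and the log2 change at stage 61 was -1.49 ± 0.15 (adjusted p = 5.4e-08). In the single stage 66 library, sox3.L was at 16.9 CPM, below every stage 61 library, while sox3.S was at 32.2 CPM, within their range.

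Both copies of sox1, a marker of the neuroectoderm that is also kept in some neurons, were lower at stage 61. sox1.S stood at 96.1, 83.8 and 78.5 CPM at stage 44, at 84.4, 70.9 and 81.0 CPM at stage 46, at 48.7, 58.6 and 85.2 CPM at stage 55 and at 36.5, 26.6 and 40 CPM at stage 61. The third stage 55 library lay within the early range, and the stage 61 libraries were below all those of stages 44, 46 and 55. The log2 change of sox1.S at stage 61 was -1.23 ± 0.18 (adjusted p = 8.4e-06), and that of sox1.L was -0.90 ± 0.18 (adjusted p = 0.00029).

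sox2.L, the third SoxB1 gene and a standard marker of neural stem cells, did not pass. It ranged from 147 to 303 CPM over the early libraries and from 133 to 189 CPM at stage 61, a log2 difference of -0.18 ± 0.19 (adjusted p = 0.45), and stage 66 was at 163 CPM. No test compared sox2.L with sox3.L or sox3.S directly.

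Of the SoxB2 genes, sox14.S, which in mouse and chick marks certain interneurons of the midbrain, diencephalon and spinal cord, stood at 50.3, 48.9 and 40.5 CPM at stage 44 and at 56.7, 45.1 and 46.3 CPM at stage 46. It was at 34.1, 26.0 and 33.6 CPM at stage 55 and 24.6, 18.7 and 27.9 CPM at stage 61, so that both later stages lay below the early libraries while overlapping each other. The log2 change was -0.60 ± 0.16 at stage 55 (adjusted p = 0.011) and -0.98 ± 0.17 at stage 61 (adjusted p = 8e-05). Of 17 alternative fits, 15 kept the stage 55 call, with adjusted p up to 0.30, and all 17 kept the stage 61 call. sox14.L fell less, by 0.39 on the log2 scale at stage 61 (adjusted p = 0.02). Its call was lost without the first or the second stage 61 library, at adjusted p = 0.052 and 0.059. It was kept in 14 of 17 alternative fits, with adjusted p up to 0.28.

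The 3 sox21 copies were low. Over the early libraries sox21.L ranged from 12.4 to 25.3 CPM, sox21-like.S from 5.54 to 10.5 CPM and sox21.S from 3.03 to 12.4 CPM. At stage 61, sox21.L was lower by a log2 change of -0.74 ± 0.26 (adjusted p = 0.025) and sox21-like.S by -0.98 ± 0.37 (adjusted p = 0.034), and sox21.S did not pass (-0.82 ± 0.46, adjusted p = 0.16). The sox21.L call was lost without the second stage 44, the first stage 61 or the second stage 61 library, with adjusted p of 0.065 to 0.11. That of sox21-like.S was also lost without single libraries. Of 17 alternative fits, 13 kept the sox21.L call and 12 that of sox21-like.S, with adjusted p up to 0.28 and 0.27.

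The SoxC genes followed another course, higher at stage 55 than early for sox4, and lower at stage 61 than at stage 55 for both genes. sox4.L stood at 382, 349 and 318 CPM at stage 44, at 308, 317 and 299 CPM at stage 46, at 507, 357 and 832 CPM at stage 55 and at 225, 313 and 285 CPM at stage 61. The third stage 55 library was the highest, and the second one lay inside the stage 44 range. The log2 change at stage 55 was 0.80 ± 0.18 (adjusted p = 0.0045) for sox4.L and 0.66 ± 0.15 (adjusted p = 0.0031) for sox4.S. Without the third stage 55 library these changes were 0.40 (adjusted p = 0.048) and 0.36 (adjusted p = 0.056). The sox4.S call was thus lost without that library, and the size of the sox4.L change depended on it. Of 17 alternative fits, 16 kept the sox4.L call and 15 the sox4.S call, with adjusted p up to 0.19 and 0.24.

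From stage 55 to stage 61 the 4 SoxC copies all fell, by 1.03 on the log2 scale for sox4.L, 1.01 for sox11.L and 1.28 for sox11.S, with sox4.S between them and adjusted p from 5e-05 to 0.0031. Without the third stage 55 library the changes of sox4.L, sox4.S, sox11.L and sox11.S were -0.65, -0.94, -0.66 and -0.91, and each still passed. The sox4.S call was kept in all 17 alternative fits. Those of sox4.L, sox11.L and sox11.S were kept in 16 of 17 each, with adjusted p up to 0.15. Against the early stages, sox11.S went from 755 to 910 CPM over the 6 libraries to 230, 313 and 328 CPM at stage 61, and the log2 change was -1.47 ± 0.21 (adjusted p = 2.1e-05). sox11.L went from 522 to 613 CPM to 181, 214 and 255 CPM, a change of -1.39 ± 0.20 (adjusted p = 2.4e-05). Neither early range overlapped stage 61. At stage 55, sox11.S stood at 657, 437 and 1028 CPM, and neither sox11 copy differed from the early stages (adjusted p = 0.17 for sox11.L and 0.52 for sox11.S). sox4.S was lower at stage 61 by -0.56 ± 0.16 (adjusted p = 0.0065), and sox4.L did not pass (-0.23 ± 0.19, adjusted p = 0.35). At stage 66 the 2 sox4 copies, at 143 and 140 CPM, were below every library of stages 44, 46, 55 and 61.

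The SoxD genes were lower at stage 61. sox5, which names no copy and in mammals guides cortical neuron identity, ranged from 54.6 to 86.3 CPM over the early libraries and stood at 30.4, 50.3 and 49.2 CPM at stage 61, all below the early range. Its log2 change was -0.72 ± 0.18 (adjusted p = 0.0023). sox13.S ranged from 17 to 23.7 CPM early and stood at 18.4, 22.8 and 17.1 CPM at stage 55 and at 10.8, 9.60 and 7.56 CPM at stage 61. Only stage 61 was apart, and the change was -1.10 ± 0.21 against the early stages (adjusted p = 0.00024) and -1.04 ± 0.23 against stage 55 (adjusted p = 0.0031). sox6.S, known in mammals from oligodendrocyte precursors and cartilage, changed by -0.65 ± 0.21 (adjusted p = 0.016) and lost its call without the first or second stage 61 library (adjusted p = 0.062 and 0.079).

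Of the 6 SoxE copies, 2 rose at stage 55 and 4 at stage 61, led by sox10. sox10.L stood at 4.85, 6.96 and 6.75 CPM at stage 44, at 3.01, 2.53 and 6.76 CPM at stage 46, at 17.7, 15.5 and 13.0 CPM at stage 55 and at 38.9, 18.4 and 24.9 CPM at stage 61, with 34.7 CPM at stage 66. Early, stage 55 and stage 61 libraries occupied 3 separate ranges. The log2 change was 1.61 ± 0.28 at stage 55 (adjusted p = 0.00031) and 2.46 ± 0.28 at stage 61 (adjusted p = 3.5e-07).

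sox10.S ran from 6.65 to 12.5 CPM over the early libraries, from 13.5 to 17 CPM at stage 55 and from 21.8 to 38.7 CPM at stage 61, again without overlap. Its log2 change was 0.79 ± 0.23 at stage 55 (adjusted p = 0.015), which missed the threshold without the second stage 55 library (adjusted p = 0.069), and 1.82 ± 0.22 at stage 61 (adjusted p = 8.9e-07). The sox10.L difference between stages 55 and 61 did not pass (0.85 ± 0.32, adjusted p = 0.068), and that of sox10.S did (1.03 ± 0.26, adjusted p = 0.0072).

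sox8, which in mouse overlaps with sox10 in oligodendrocytes, was less uniform. sox8.S ranged from 5.65 to 15 CPM over the early libraries, stood at 2.47, 14 and 8.51 CPM at stage 55 and at 54.8, 11.1 and 56.3 CPM at stage 61. The second stage 61 library lay within the early range. The stage 61 call (1.76 ± 0.53, adjusted p = 0.022) was lost in 3 of the 12 fits that left out a library, namely without the second stage 44, the first stage 61 or the third stage 61 library (adjusted p = 0.05 to 0.096), and without the filter on low counts (adjusted p = 0.064). sox8.L stood at 13.9, 21.2 and 12.8 CPM at stage 61 against 5.43 to 14.1 CPM early, a change of 0.76 ± 0.27 (adjusted p = 0.027) that missed the threshold without the second stage 61 library (0.49, adjusted p = 0.22) and without several early ones. Against stage 55 it was higher by 1.52 ± 0.33 (adjusted p = 0.0023). sox8.S was also called higher at stage 61 than at stage 55, a call kept in 6 of 17 alternative fits. Over these fits its log2 change was 1.88 to 2.87 and its adjusted p 0.0018 to 0.11.

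sox9, which is expressed in astroglia and neural progenitors as well as in cartilage, did not pass in either copy. sox9.S ranged from 109 to 141 CPM early, 118 to 171 CPM at stage 55 and 96.5 to 158 CPM at stage 61, and the stage 61 difference was 0.03 ± 0.14 (adjusted p = 0.87). For sox9.L it was 0.18 ± 0.15 (adjusted p = 0.33).

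**Figure D2:**
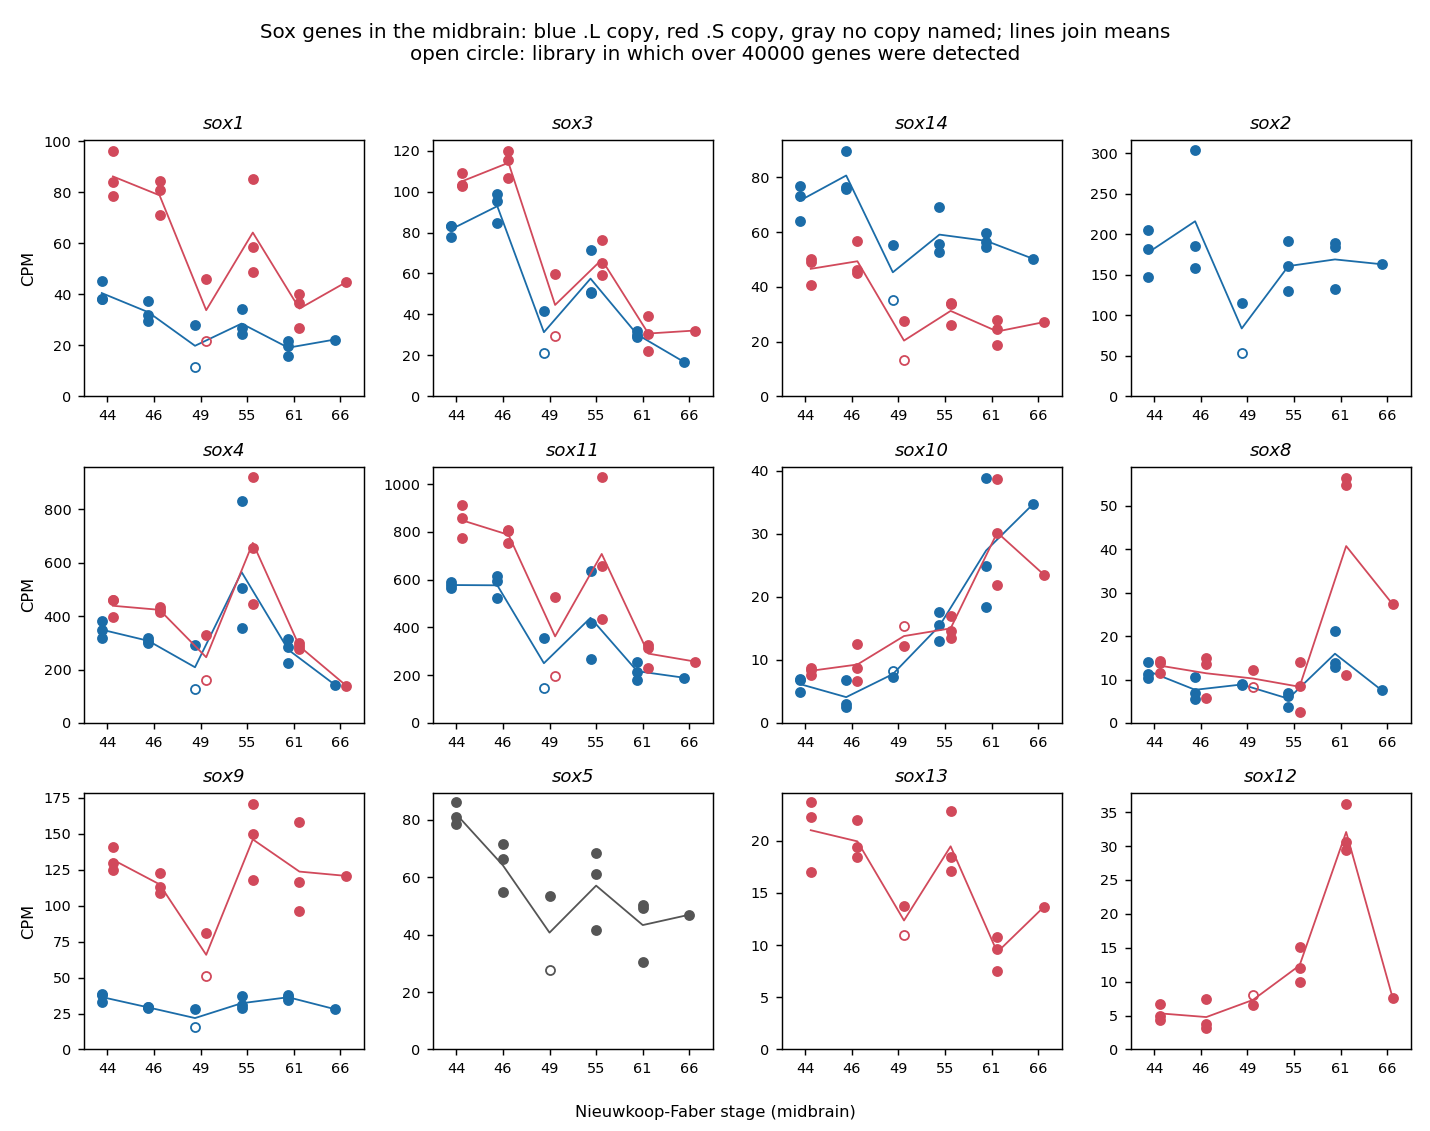
CPM of Sox gene copies in each midbrain library by stage (points; filled, libraries with at most 40000 genes detected; open, libraries with more), with lines through the stage means. sox3 steps down over stages 46, 55 and 61, with means that dip at stage 49 below those of stage 55. sox10 steps up between stages 46 and 61, and sox4 and sox11 spread widely at stage 55. The open stage 49 library lies below the filled one for sox1, sox2, sox3, sox4 and sox11.

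sox12.S, outside the 5 groups, had the largest positive change of the 30 copies at stage 61. It stood at 6.69, 4.28 and 5.01 CPM at stage 44, at 3.12, 3.79 and 7.42 CPM at stage 46, at 15.1, 12.1 and 10 CPM at stage 55 and at 30.6, 29.5 and 36.1 CPM at stage 61. The early, stage 55 and stage 61 ranges did not overlap. The log2 change was 1.31 ± 0.25 at stage 55 (adjusted p = 0.00083) and 2.70 ± 0.25 at stage 61 (adjusted p = 1.9e-08). The single stage 66 library had 7.55 CPM, just above the highest early library at 7.42 CPM. sox15.L, whose Xenopus product was once named SoxD and acts in early neural development, ranged from 10.2 to 17.2 CPM early and from 4.30 to 7.59 CPM at stage 61, a change of -1.12 ± 0.25 (adjusted p = 0.0012).

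The SoxF genes act mainly in vessel cells. The log2 changes of the 5 copies tested lay between -0.48 and 0.51 at stage 61 against the early stages, with adjusted p from 0.14 to 0.49. sox18.L, which in mammals directs lymphatic endothelium, was higher at stage 61 than at stage 55, with 10.8, 19.9 and 11.3 CPM against 5.69, 5.98 and 8.85 CPM and a log2 change of 1.04 ± 0.32 (adjusted p = 0.024). This call was lost without the first or second stage 55 library (adjusted p = 0.085 and 0.087) or the second stage 61 library (0.68, adjusted p = 0.17), and in the fit of all 30 samples (adjusted p = 0.10). For sox18.S the difference was 0.93 ± 0.38 (adjusted p = 0.093).

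Lists of genes that go with each Sox group gave the setting of these changes. Over all genes, 12.4% were higher and 10.6% lower at stage 55, and 21.8% were higher and 22% lower at stage 61. Of 18 myelin and oligodendrocyte genes, many of them SoxE targets in mammals, 12 were higher and 2 lower at stage 55 and 13 were higher and 3 lower at stage 61, with a median log2 change of 1.74 beside 0.01 over all genes. Of the lower genes, nkx2-2.L, a patterning factor of ventral progenitors, fell by 1.05 on the log2 scale at stage 61 (adjusted p = 6.2e-06). The summed level of the 18 genes was 220 to 261 CPM at stage 46, 826 to 1315 CPM at stage 55 and 2547 to 3699 CPM at stage 61.

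Of 25 progenitor genes, 19 were lower and 3 higher at stage 61 with a median of -1.40, led by the radial glia gene fabp7.L (-3.13, adjusted p = 1.1e-10) and by the glutamate transporter slc1a3.S (0.62, adjusted p = 0.0021). At stage 55, 6 of the 25 were lower. Of 28 neuron differentiation genes, 6 were higher and 11 lower at stage 61 (median -0.20), the 6 being a share near that of all genes. stmn2.S, a microtubule regulator of growing axons, rose by 0.76 on the log2 scale (adjusted p = 5.2e-05). The proneural factor neurod4.S had 0 counts in the 3 stage 61 libraries together and 413 in the 6 early ones, which, with a floor of 3 counts over the group, is at least 58.7-fold lower.

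Genes of cells outside the neural tissue also moved over the stages. The share of all genes at stage 61 was 21.8% higher and 22% lower. Of 9 cartilage and connective tissue genes tested, 6 were lower at stage 61 (median -1.31, col2a1.L -3.48), and their summed level went from 304 to 367 CPM at stage 44 to 71.0 to 89.5 CPM at stage 61. Of 12 epidermal genes, 10 were lower (median -2.87, krt8.L -1.92), and of 22 endothelial genes 8 were lower (median -0.37, robo4.S -0.91). Skeletal muscle genes were lower in 8 and higher in 2 of 14 (median -2.39, with pvalb.L at 1.92 and mylpf.S at 2 counts over the 3 stage 61 libraries against 206 over the 6 early ones). Red blood cell genes were higher in 2 and lower in 3 of 7, with the hemoglobin genes hbg1.L at 3.90 and hbd.L at -6.80. Neural crest, Schwann cell and pigment cell genes were lower in 5 of 14 (median -0.56, with the pigment gene pmel.S at 2 counts against 697). The part of these cells in the changes of sox9.S, sox10.L, sox10.S, sox8.S and the SoxF copies was not tested.

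Stage 49 was compared with its neighbours in a fit of 14 midbrain libraries. Against stage 46, 10 of 30 copies were lower and 0 higher (background 7.89% lower and 9.81% higher), with 3 higher in edgeR at an unadjusted p under 0.05 and 0 higher in DESeq2. The 10 were sox1.S, sox2.L, sox3.L, sox3.S, sox14.L, sox14.S, sox11.L, sox11.S, sox9.S and sox17a.S, led by sox3.L at -1.45 ± 0.22 (adjusted p = 0.00026). The 2 stage 49 libraries differed from each other, with sox2.L at 115 and 53.0 CPM, sox3.L at 41.5 and 21.2 CPM and sox11.L at 354 and 146 CPM. Without the second library, one of those that stood apart, fewer copies were called, and without the first, more were. Each of these fits left 1 stage 49 library, and no share over all genes is given for them. From stage 49 to stage 55, 5 copies were higher and 0 lower (background 2.37% and 2.61%). 1 was lower in edgeR at an unadjusted p under 0.05 and 0 in DESeq2, and the 5 were sox3.L, sox4.L, sox4.S, sox9.S and sox17a.S. None of these calls was kept without the second stage 49 library, and more copies were called without the first. The place of stage 49 between stages 46 and 55 thus depended on which library was kept.

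The copies of a homeologous pair were read within each library, as the share of the pair's summed CPM that came from the .L copy. Of 7 pairs with at least 100 counts in every library, 1 passed an exact permutation test over the 4 midbrain stages. Pairs of other genes were not tested, so the counts of pairs have no background. For sox14 the L share was 56.0%, 61.1% and 64.4% at stage 44 and 69.6%, 74.4% and 68.1% at stage 61, with means of 60.5%, 62.1%, 65.4% and 70.7% over stages 44, 46, 55 and 61. All stage 61 libraries were above all others, and the exact permutation p was 0.0062 (adjusted p = 0.044 over the 7 pairs). The call was lost in most fits that left out a library. For sox4 and sox11 the adjusted p by the exact permutation test was 0.065. In the regions at stage 46, 4 pairs could be tested and 0 passed, with 0 also at an unadjusted p under 0.05 (smallest exact permutation p = 0.16).

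The second question was how the Sox genes differed between regions at stage 46. All 32 copies passed the filter in these 12 libraries, and 20 differed over the 4 regions in edgeR, against a background of 11.9% of all genes. Each region was compared with the mean of the other 3, and the regions share these samples. In the forebrain 4 copies were higher and 4 lower (background 2.53% and 3.12%), in the midbrain 10 were higher and 2 lower (2.33% and 1.94%), in the hindbrain 1 was higher and 2 lower (0.78% and 0.328%), and in the spinal cord 7 were higher and 8 lower (6.72% and 5.67%). All of these calls were kept when the third libraries of forebrain, hindbrain and spinal cord were left out, and the forebrain count was then 13 and the hindbrain count 7. Same-numbered forebrain, hindbrain and spinal cord libraries deviated together, and with the replicate number as a block the hindbrain count was 7 as well. The shares over all genes in these alternative fits are not given here, so these counts have no background.

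**Figure D3:**
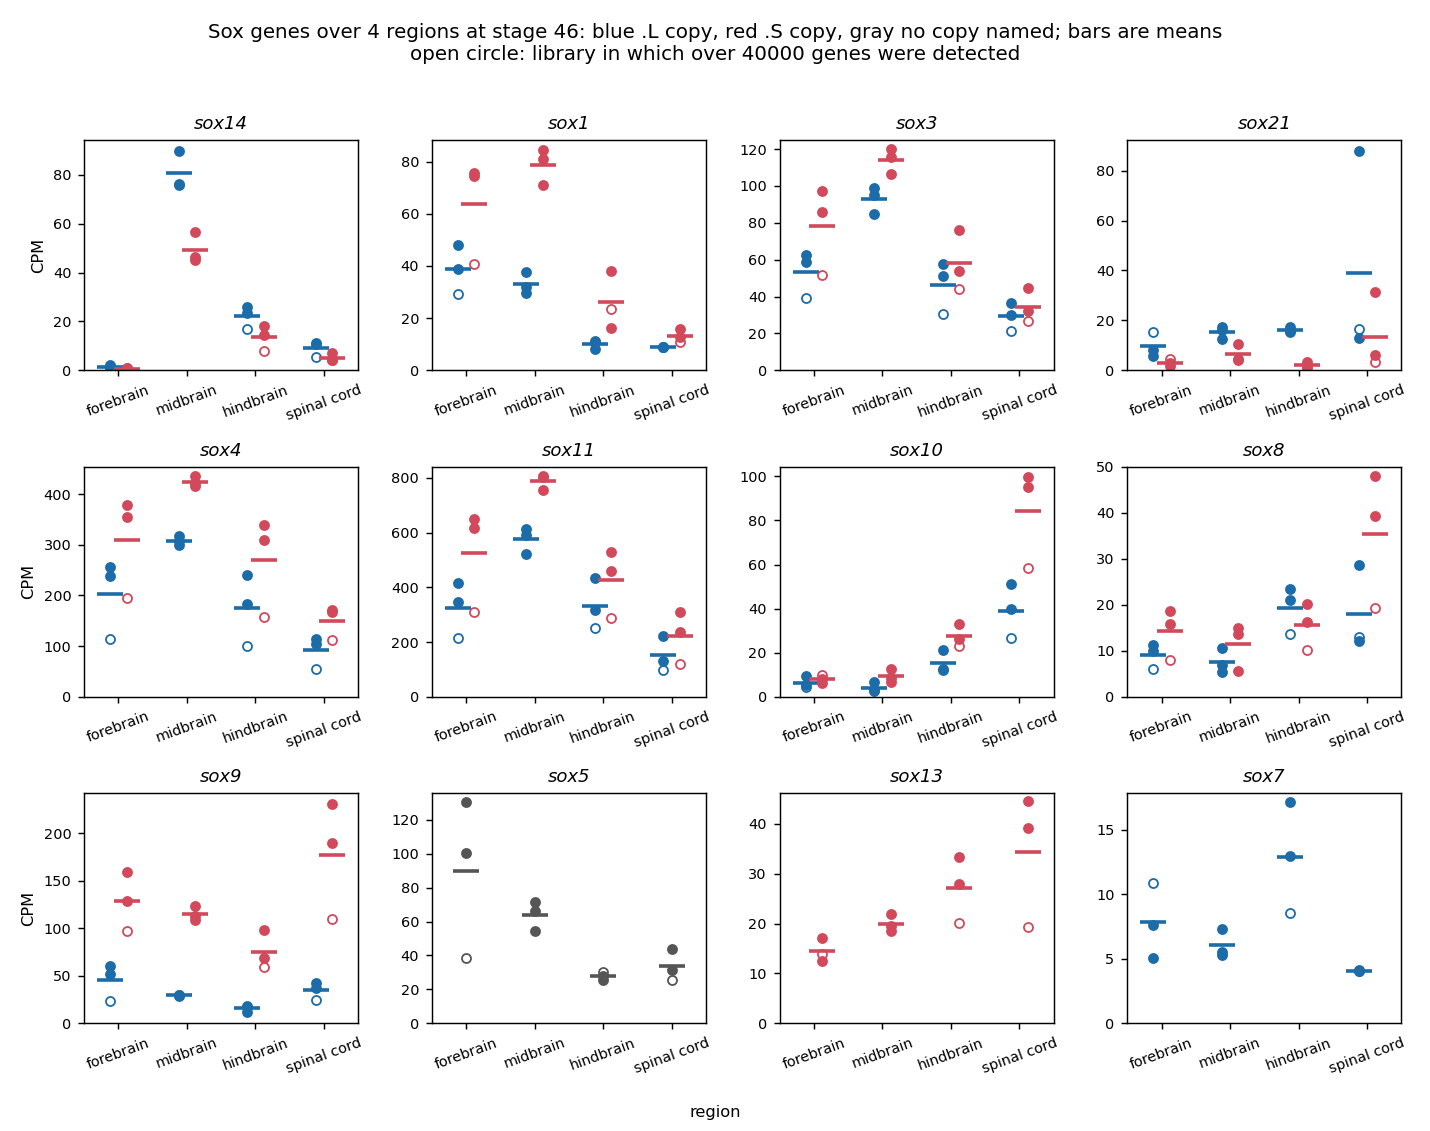
CPM of Sox gene copies in each library of the 4 regions at stage 46 (points; filled, libraries with at most 40000 genes detected; open, libraries with more), with bars at the means. sox14 stands highest in the midbrain and lowest in the forebrain, sox10 highest in the spinal cord, and 1 spinal cord library carries the high sox21 values.

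sox14.L had the smallest p over the regions. It stood at 89.7, 75.8 and 76.5 CPM in the midbrain, at 23.5, 26.1 and 17.1 CPM in the hindbrain, at 11.1, 10.8 and 5.61 CPM in the spinal cord and at 1.73, 0.379 and 2.13 CPM in the forebrain. The regions did not overlap, and each of the 6 pairs of regions differed at an adjusted p of at most 0.023. Midbrain was above the mean of the others by 3.57 ± 0.23 on the log2 scale (adjusted p = 9.3e-08), and forebrain was below it by a log2 difference of -4.24 ± 0.37 (adjusted p = 1.1e-06).

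sox14.S had the same order, at 56.7, 45.1 and 46.3 CPM in the midbrain, 18.0, 14.6 and 8.05 CPM in the hindbrain, 7.03, 4.29 and 4.26 CPM in the spinal cord and 1.04, 0 and 0.945 CPM in the forebrain. Its differences were 3.75 ± 0.30 for midbrain (adjusted p = 1e-06) and -4.62 ± 0.51 for forebrain (adjusted p = 1.2e-05). Hindbrain and spinal cord, neighbours in this order, did not overlap but did not pass as a pair. Against the mean of the other regions, hindbrain was higher for sox14.L (1.20 ± 0.25, adjusted p = 0.024). That mean is taken on the log scale and holds the very low forebrain, and every midbrain library was above every hindbrain one. The hindbrain call was lost without the first or second hindbrain library or any midbrain library (adjusted p = 0.056 to 0.18).

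sox1 was high in forebrain and midbrain. sox1.L stood at 38.8, 47.9 and 29.3 CPM in the forebrain and 31.8, 37.5 and 29.6 CPM in the midbrain, against 8.14, 10.9 and 11.1 CPM in the hindbrain and 9.06, 9.02 and 8.97 CPM in the spinal cord. The anterior regions overlapped each other, as did the posterior ones, and the 6 anterior libraries were all above the 6 posterior ones. Forebrain was higher than the mean of the others by 1.46 ± 0.17 (adjusted p = 2.2e-05) and midbrain by 1.04 ± 0.17 (adjusted p = 0.0015), and spinal cord was lower by a log2 difference of -1.37 ± 0.20 (adjusted p = 0.00015). sox1.S was higher in forebrain (1.11) and midbrain (1.42) and lower in spinal cord (-1.94 ± 0.26, adjusted p = 4.5e-05). Hindbrain was lower for sox1.L (-1.13 ± 0.20, adjusted p = 0.0066), which was lost without its first or second library (adjusted p = 0.094 and 0.056).

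By level, sox3 was highest in the midbrain. sox3.S stood at 120, 116 and 107 CPM there, at 85.7, 97.5 and 51.7 CPM in the forebrain, at 75.9, 54.0 and 44.1 CPM in the hindbrain and at 32.3, 44.4 and 26.7 CPM in the spinal cord. Midbrain lay above all other libraries. Against the mean of the other regions, which holds the low spinal cord, it was higher by 1.01 ± 0.19 for sox3.S (adjusted p = 0.0038) and 1.08 ± 0.18 for sox3.L (adjusted p = 0.0015). In the test of forebrain against midbrain alone, 2 of 32 copies were lower in the forebrain and 0 higher (background 1.46% and 1.04%). The 2 were the sox14 copies, so neither sox3 copy passed there. Spinal cord differed from the other regions by -1.22 ± 0.21 and -1.07 ± 0.20. sox2.L overlapped in every region, at 90.7 to 303 CPM over the 12 libraries, and the test over regions gave an adjusted p of 0.31.

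For sox21 a single spinal cord library set the result. sox21.L stood at 13.1, 87.9 and 16.4 CPM in the spinal cord and at 5.54 to 17.5 CPM in the other 9 libraries. sox21.S stood at 5.94, 31.2 and 3.36 CPM there, and sox21-like.S at 3.91, 32.7 and 4.04 CPM. The second library was high for all 3 copies. Spinal cord was called higher for sox21.S (1.96 ± 0.55, adjusted p = 0.026) and sox21-like.S (1.77 ± 0.48, adjusted p = 0.021), and without that library the differences were 0.49 (adjusted p = 0.81) and 0.09 (adjusted p = 0.96). With the replicate number as a block, sox21.S did not pass (1.87, adjusted p = 0.094). The sox21.L difference did not pass (1.51 ± 0.49, adjusted p = 0.076).

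Against the mean of the other 3 regions, the SoxC copies were higher in the midbrain and lower in the spinal cord. As for sox3, the mean set against the midbrain holds the low spinal cord. The midbrain calls do not show a difference from the forebrain alone. sox11.L stood at 522, 593 and 613 CPM in the midbrain, at 347, 415 and 213 CPM in the forebrain, at 434, 316 and 250 CPM in the hindbrain and at 132, 224 and 98.5 CPM in the spinal cord. Midbrain was above every other library and forebrain and hindbrain overlapped. Midbrain was higher by 1.12 ± 0.23 for sox11.L (adjusted p = 0.0074), 1.04 ± 0.24 for sox11.S, 1.00 ± 0.24 for sox4.L and 0.81 ± 0.22 for sox4.S (adjusted p = 0.044). These midbrain calls were lost without single midbrain libraries, with adjusted p up to 0.24. That of sox4.S was kept in 8 of 18 alternatives and was also lost without single libraries of the other 3 regions. Spinal cord was lower for all 4, by log2 differences of -1.12 to -1.40 with adjusted p of 0.0013 to 0.0044.

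SoxE had the opposite order for sox10. sox10.S stood at 95.0, 99.5 and 58.3 CPM in the spinal cord, at 26.0, 33.2 and 23.2 CPM in the hindbrain, at 8.67, 12.5 and 6.65 CPM in the midbrain and at 7.96, 6.32 and 9.92 CPM in the forebrain. Spinal cord and hindbrain were each apart from the rest, and midbrain and forebrain overlapped and did not differ as a pair. Spinal cord was higher by 2.72 ± 0.20 (adjusted p = 4.2e-08), midbrain lower by a log2 difference of -1.59 ± 0.25 (adjusted p = 0.00078) and forebrain by -1.73 ± 0.26 (adjusted p = 0.00028).

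sox10.L stood at 39.7, 51.0 and 26.7 CPM in the spinal cord, at 12.6, 21.2 and 12.3 CPM in the hindbrain, at 3.01, 2.53 and 6.76 CPM in the midbrain and at 5.37, 9.35 and 4.25 CPM in the forebrain. Spinal cord was again above all other libraries, with a log2 difference of 2.39 ± 0.26 (adjusted p = 4.1e-06), and midbrain was lower (-2.0 ± 0.33, adjusted p = 0.0013).

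The other SoxE copies differed less. sox8.S stood at 39.2, 47.9 and 19.3 CPM in the spinal cord against 5.65 to 20.2 CPM elsewhere, a difference of 1.37 ± 0.27 (adjusted p = 0.002). sox9.S stood at 190, 231 and 109 CPM there against 59.0 to 159 CPM elsewhere, a difference of 0.76 ± 0.20 (adjusted p = 0.019) that was lost without the first or the second spinal cord library (adjusted p = 0.11 and 0.23). In both, the third spinal cord library overlapped the other regions. sox9.L was higher in the forebrain (0.86 ± 0.21, adjusted p = 0.018) and lower in the hindbrain (-1.14 ± 0.24, adjusted p = 0.024), and each call was lost without the first or second library of its region (adjusted p = 0.15 and 0.26 in forebrain, 0.28 and 0.14 in hindbrain).

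Of the SoxD genes, sox5 stood at 100, 130 and 38.3 CPM in the forebrain, 66.3, 71.4 and 54.6 CPM in the midbrain, 28.0, 25.5 and 30.1 CPM in the hindbrain and 31.3, 43.9 and 25.8 CPM in the spinal cord. The third forebrain library lay with the posterior regions. Forebrain was higher by 1.20 ± 0.23 (adjusted p = 0.0029) against a mean that holds the low hindbrain and spinal cord. In the test of forebrain against midbrain alone, sox5 did not pass. sox13.S was higher in the spinal cord (39.2, 44.5 and 19.3 CPM; 0.77 ± 0.20, adjusted p = 0.014) and lower in the forebrain (17.1, 12.5 and 13.9 CPM; -0.81 ± 0.22, adjusted p = 0.037). Its forebrain call was lost without most single libraries. sox6.S, from 8.75 to 33.5 CPM over the 12 libraries, did not differ over regions (adjusted p = 0.36).

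In the SoxF group, sox7.L, an endothelial gene, stood at 17.2, 13.0 and 8.53 CPM in the hindbrain against 4.06, 4.14 and 4.04 CPM in the spinal cord, and these 2 regions differed (log2 difference 1.66, adjusted p = 0.023). sox17a.L stood at 16.4, 13.1 and 17 CPM in the midbrain and 6.25, 2.51 and 6.95 CPM in the spinal cord, which also differed (1.48, adjusted p = 0.014). sox17a.S, sox18.L and sox18.S did not differ over the regions (adjusted p = 0.20, 0.49 and 0.57), nor did sox12.S and sox15.L (adjusted p = 0.70 and 0.12).

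sox17b.1.S and sox17b.2.L, whose products specify endoderm in the Xenopus embryo, were set apart by library and not by region. In the 10 libraries with more than 40000 genes detected, each had at least 8 counts and up to 30. In the other 20, each had at most 2 counts, except for 6 counts of sox17b.1.S in the first stage 61 midbrain library. The files do not say how reads that fit several near-identical copies were counted, so the split between these copies is uncertain.

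**Figure D4:**
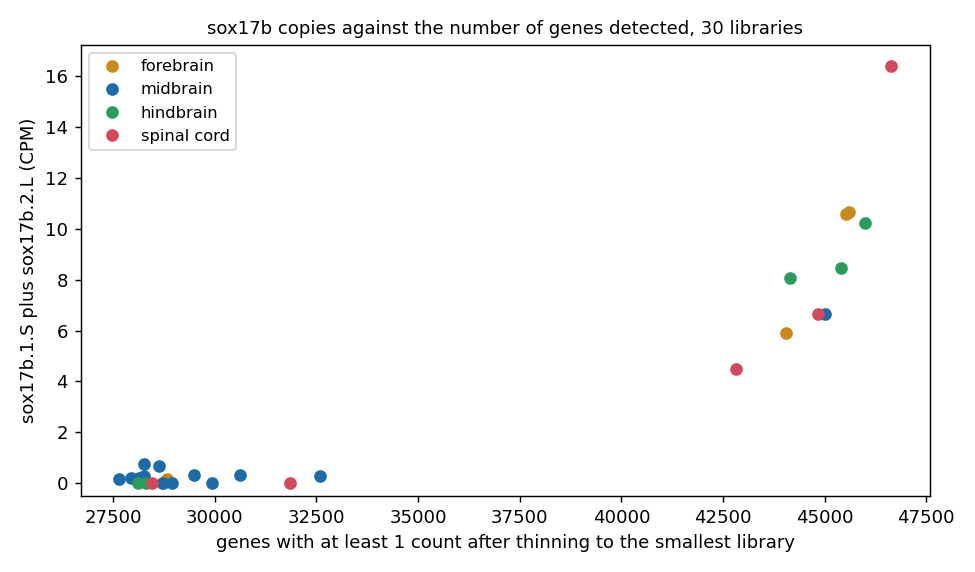
Summed CPM of sox17b.1.S and sox17b.2.L against the number of genes detected after thinning every library to the smallest one, 1 point for each of 30 libraries, colored by region. The 10 libraries with 42817 to 46638 genes hold the high values in every region, and the 20 libraries with 27651 to 32593 genes lie near 0.

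The myelin and oligodendrocyte list was, like sox10, higher in the spinal cord at stage 46. Over all genes, 6.72% were higher and 5.67% lower in the spinal cord and 0.78% higher in the hindbrain. In the midbrain 1.94% were lower and 2.33% higher, and in the forebrain 3.12% were lower. Of its 18 genes 13 were higher in the spinal cord (median 2.05 beside 0.14 over all genes; gpr17.L, of oligodendrocyte precursors, 3.97 with adjusted p = 2.5e-10), 4 were higher in the hindbrain, 12 were lower and 2 higher in the midbrain and 9 were lower in the forebrain. Progenitor genes were higher in 7 and lower in 3 of 25 in the spinal cord (hes1.L 1.47, hes5.1.S -1.30), and neuron differentiation genes were higher in 2 and lower in 9 of 28 (elavl4.L 0.93, neurod6.L -3.84).

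Some lists of genes of cells outside the neural tube differed in the spinal cord too. Over all genes, 6.72% were higher and 5.67% lower there. Of 12 cartilage and connective tissue genes 9 were higher there (median 2.25, matn4.L 3.88), and their summed level was 2249 to 2829 CPM against 245 to 559 CPM in the other regions. Of 17 skeletal muscle genes 12 were higher (median 2.81, tnnt3.L 3.05). Epidermal genes were higher in 6 and lower in 3 of 21 (krt19.L 2.94, cldn1.L -1.65). Red blood cell genes were lower in 4 of 7 (hbd.L -2.15). Endothelial genes were higher in 1 and lower in 1 of 22 (robo4.L 1.05, flt1.S -1.56), no larger shares than over all genes. Neural crest, Schwann cell and pigment cell genes were higher in 3 and lower in 1 of 16 (tyrp1.L 1.64, tfap2a.L -0.69). The part of cartilage and neural crest cells in the spinal cord levels of sox9.S, sox8.S, sox10.L and sox10.S was not tested.

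At stage 49, with 2 libraries per region, 31 copies were tested and 1, sox14.L, differed over the regions (adjusted p = 0.002; background 0.536%). It stood at 55.3 and 35.4 CPM in the midbrain, 6.18 and 7.11 CPM in the hindbrain, 3.04 and 4.95 CPM in the spinal cord and 1.44 and 1.15 CPM in the forebrain. The order of the regions was that of stage 46, with no overlap. Midbrain was higher by 3.68 ± 0.27 for sox14.L (adjusted p = 0.00044) and by 3.17 ± 0.50 for sox14.S (adjusted p = 0.048), the 2 copies called there (background 0.18% higher and 0.0112% lower). The sox14.S call was kept in 5 of the 12 alternatives, with adjusted p up to 0.20, and was lost without any one forebrain, hindbrain or spinal cord library and with the replicate number as a block (adjusted p = 0.12). No copy was called lower in the midbrain, with 1 in edgeR at an unadjusted p under 0.05 and 0 in DESeq2. DESeq2 gave no adjusted p for 19 of the 31 copies there, so its 0 covers only the rest. Forebrain was lower for sox14.L (-3.04 ± 0.41, adjusted p = 0.015), with 1 copy called lower and 0 higher (background 0.0927% and 0.281%; 2 higher in edgeR at an unadjusted p under 0.05 and 0 in DESeq2). The forebrain call of sox14.L was lost without any one forebrain or hindbrain library, with adjusted p of 0.061 to 0.43.

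In the hindbrain of stage 49, 0 copies were called in either direction in edgeR (background 0.00842% higher and 0% lower), with 2 higher and 2 lower at an unadjusted p under 0.05 and 0 in DESeq2. In the spinal cord 0 were called in edgeR (background 0.18% higher and 0.101% lower), with 1 higher and 3 lower at an unadjusted p under 0.05, and DESeq2 called 0 higher and 1 lower. DESeq2 gave no adjusted p for 3 of 31 copies in the hindbrain, 12 in the spinal cord and 1 in the forebrain. All libraries of these 2 regions and of the forebrain were among those that stood apart, and the midbrain had 1 of each kind. Without the second midbrain library, the midbrain is left with 1 library, of another kind than those of the other regions. The number of copies called in that fit is not read here. Region and the kind of library then cannot be told apart.

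Whether a region's difference from the others changed between stages 46 and 49 was tested as an interaction over the 20 libraries of both stages. In the spinal cord 3 of 32 copies passed (background 1.54%), and in forebrain, hindbrain and midbrain edgeR called 0 of 32 each (background 0.00705%, 0.00235% and 0.0258%), with 3, 3 and 4 at an unadjusted p under 0.05. This interaction was not run in DESeq2. The 3 were sox10.L, sox10.S and sox9.S, whose spinal cord levels relative to the other regions were higher at stage 46 than at stage 49. sox10.S stood at 95.0, 99.5 and 58.3 CPM in the spinal cord of stage 46 and at 27.1 and 39.2 CPM at stage 49, when hindbrain had 25.4 and 21.6 CPM. sox9.S stood at 190, 231 and 109 CPM at stage 46 and at 27.7 and 40.7 CPM at stage 49. The stage 49 libraries of the other regions had 58.7 and 69.1 CPM in forebrain, 80.7 and 51.0 CPM in midbrain and 48.5 and 38.1 CPM in hindbrain, so the sox9.S difference went from 0.76 ± 0.20 above the other regions at stage 46 to -0.62 ± 0.31 at stage 49, where it did not pass by itself (adjusted p = 0.74). At stage 46, sox9.S had 97.5 to 159 CPM in forebrain, 109 to 123 in midbrain and 59.0 to 98.2 in hindbrain. It was thus lower at stage 49 in these regions too, without overlap. In the spinal cord, stage 49 lay below stage 46 for both copies. The third stage 46 library, which stood apart as both stage 49 ones did, was the lowest of its stage. It was above both stage 49 ones for sox10.S and sox9.S.

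**Figure D5:**
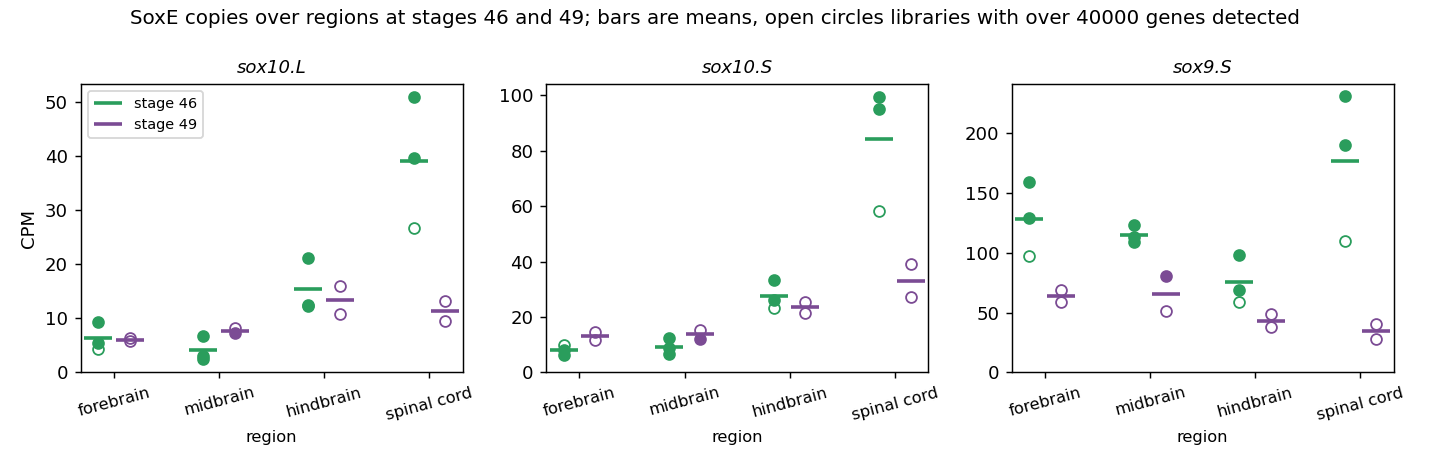
CPM of sox10.L, sox10.S and sox9.S in the libraries of the 4 regions at stages 46 and 49 (points; filled, libraries with at most 40000 genes detected; open, libraries with more), with bars at the means. The spinal cord values of stage 46 stand above those of stage 49, where every spinal cord library is open. Hindbrain sox10.S is at 23.2 to 33.2 CPM at stage 46 and 21.6 to 25.4 CPM at stage 49. For sox9.S the stage 46 libraries stand above those of stage 49 in forebrain, midbrain and hindbrain too.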

How the data were processed

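RNA of 30 X. laevis tissue samples was sequenced. Per the methods, the authors aligned reads to the v9.2 assembly with STAR 2.5.2a and counted them per gene with HTSeq 0.11.1, and the deposited raw counts per gene were used here without change. The 2 tables normalized with DESeq2 1.22.2 were not used. Strand and multiple-mapping settings are not given in the sources used here.

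In R 4.3.3, edgeR 4.0.16 (filterByExpr with a minimum count of 10 and total of 15, TMM, robust quasi-likelihood F test) was fitted over 12 midbrain libraries (stages 44, 46, 55 and 61), 14 midbrain libraries (with stage 49), 12 libraries of stage 46 and 8 of stage 49, and p-values were Benjamini-Hochberg adjusted over all genes tested. A call is an adjusted p under 0.05. Standard errors are the log2 change divided by the square root of F. Printed CPM use TMM factors over all 30 libraries, and fold changes come from each fit. L shares of pairs were tested by exact permutation of the libraries over their groups. Scripts were tested on simulated data.

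Members are all rows named sox and a number. In each Sox group up to 4 copies per axis, by smallest p in the overall test, have every value printed. 9 lists written from general knowledge (SoxE targets and myelin, progenitor, neuron differentiation, endothelium, cartilage, muscle, red blood cells, neural crest with Schwann and pigment cells, epidermis) give counts and the member with the smallest p in each direction. Some of these members are not reported here. Members and lists were chosen with earlier results of these data known. Alternatives were DESeq2 1.42.0, relative log expression scaling, no filter, the study's log2 fold threshold of 2, all 30 samples in one fit, replicate blocks and leaving out libraries. The interaction of region and stage was added after the data were seen. Deviations of same-numbered samples from their group means correlated at 0.31 to 0.79 between the stage 46 forebrain, hindbrain and spinal cord. In each of these regions the library numbered 3 stood apart, which by itself makes such deviations correlate. The check therefore cannot show whether the numbers pair samples, and the labels state no source for them. The deviations correlated at 0.0058 to 0.073 between these regions and the midbrain, -0.076 to 0.09 over the midbrain stages and -0.56 to 0.39 at stage 49. The numbers were not read as pairs there. The fits have no block. Blocked values are given where the block lost a call at stage 46, and copies called only with the block are counted but not named. No sequence is shown, since no genome of the v9.2 build was used here.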

Additional observations from a re-analysis of the deposited data

Results flagged for a closer look

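The difference of 3 SoxE copies between the spinal cord and the mean of the other regions changed between stages 46 and 49 by the interaction test in edgeR over 20 libraries. For sox10.L the log2 difference at stage 46 was above that at stage 49 by 2.14 ± 0.47 (SE, adjusted p = 0.026). For sox10.S it was above by 1.81 ± 0.36 (adjusted p = 0.014), and for sox9.S by 1.64 ± 0.40 (adjusted p = 0.041). Within the stage 49 fit, the spinal cord differed by 0.51 ± 0.31 for sox10.L, 1.15 ± 0.23 for sox10.S and -0.62 ± 0.31 for sox9.S, none of which passed (adjusted p = 0.87, 0.11 and 0.74), so the sox9.S difference was below 0 at stage 49. The other SoxE copies did not pass, with sox8.S at 1.51 ± 0.50 (adjusted p = 0.15). Over the same 2 stages the summed cartilage and connective tissue genes of the spinal cord went from 2249 to 2829 CPM to 298 to 362 CPM, and the epidermal genes from 1205 to 1950 CPM to 561 to 1014 CPM. The myelin and oligodendrocyte genes were at 1740 to 3204 CPM at stage 46 and 2439 to 4569 CPM at stage 49. Both stage 49 spinal cord libraries, and 1 of the 3 of stage 46, were among those with over 40000 genes detected. That stage 46 library had 26.7 CPM of sox10.L, 58.3 CPM of sox10.S and 109 CPM of sox9.S. The higher of the stage 49 ones had 13.1, 39.2 and 40.7 CPM. The parts of stage and of kind of library in the change were not tested, and 1 such library at stage 46 is too few to separate them.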

How the results depend on the processing

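Of the calls in the main comparisons, none changed sign under the alternatives run. DESeq2 kept all 95 calls it gave an adjusted p for, relative log expression scaling kept 95 and lost 2, the fit without a filter kept 94 and lost 3, and the fit of all 30 samples kept 66 and lost 31. With the study's added threshold of a log2 change of 2, the number of Sox copies called was 0 at stage 55 against the early stages, 2 at stage 61 against the early stages, 1 from stage 55 to 61, 0 from stage 46 to 49 and 0 from stage 49 to 55, and at stage 46 it was 2 in forebrain, 2 in midbrain, 0 in hindbrain and 2 in spinal cord. In DESeq2 it was 13 at stage 55 against the early stages, 8 in stage 46 hindbrain, 4 in stage 49 midbrain, 1 in stage 49 spinal cord and 3 over the regions of stage 49. With all 30 samples in one fit it was 3 at stage 55 and 13 at stage 61 against the early stages, 8 from stage 55 to 61, 2 from stage 46 to 49, 0 from stage 49 to 55, 5 in stage 46 hindbrain, 9 in stage 49 midbrain, 3 in stage 49 spinal cord and 5 over the regions of stage 49. Without the filter it was 9 from stage 49 to 55 and 2 over the regions of stage 49, and relative log expression scaling also gave 2 there. Without the third stage 46 libraries of forebrain, hindbrain and spinal cord it was 13 in forebrain and 7 in hindbrain. Shares over all genes in these alternative fits are not given, so the counts have no background beside them. The cause of these moves was not tested.

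With the replicate number as a block, 91 calls were kept and 6 lost, and 7 copies were called in stage 46 hindbrain and 1 in stage 49 midbrain. At stage 46 the block lost 1 call, sox21.S in the spinal cord. The labels state no shared origin for a number. Same-numbered libraries deviated together between the 3 stage 46 regions other than the midbrain. The third library stood apart in each of these regions, so pairing was not shown.

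When 1 library was left out, the copies called ran from 0 to 0 between stages 44 and 46, 6 to 10 at stage 55 and 16 to 20 at stage 61 against the early stages, 12 to 14 from stage 55 to 61, 16 to 21 over the 4 stages, 1 to 18 from stage 46 to 49 and 0 to 14 from stage 49 to 55. At stage 46 they ran from 5 to 9 in forebrain (5 without its second library), 8 to 14 in midbrain, 0 to 7 in hindbrain (0 without its first or second library, 7 without the third forebrain library, 1 without any one midbrain library), 11 to 17 in spinal cord and 14 to 22 over regions. At stage 49 they ran from 0 to 6 in forebrain, 1 to 18 in midbrain, 0 to 5 in hindbrain, 0 to 7 in spinal cord and 1 to 17 over regions, each highest without the second midbrain library. From stage 49 to 55 they were also 3 without the first and 2 without the third stage 55 library. Pairs with a changed L share ran from 0 to 3 in the midbrain (3 without the first and 2 without the third stage 61 library) and were 0 in the regions, and with a minimum of 20 counts 0 passed. No share over all genes or pairs is given beside these counts of copies and pairs. Stage 49, with 2 libraries per region, 1762544 counts in the smallest library and few genes past the threshold, limits what could be detected.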
